A study of Mus musculus with 3 samples.

Results

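The genes described here code for the proteins of the cytosolic ribosome. They were chosen by gene symbol alone: Rpl or Rps followed by a number and at most 1 letter a, l or x, together with Rplp0, Rplp1, Rplp2 and Rpsa. Mitochondrial ribosomal proteins, the Rps6k kinases, pseudogenes and probe sets that name several genes were left out. The rule found 46 of the 18194 genes on the array, 24 of the large and 22 of the small ribosomal subunit, read by 100 probe sets, and the probe set with the highest mean stood for its gene.

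The samples were mouse gastric epithelial cells of 3 lineages, collected by laser-capture microdissection and measured on Affymetrix Mouse Genome 430 2.0 arrays. Parietal cells, which secrete acid, were picked singly from the pit zone by DBA lectin binding and autofluorescence. Pit cells, the mucous cells near the mouth of each gastric unit, were E-cadherin-positive and DBA-negative and came from those units. Zymogenic (chief) cells, which secrete digestive enzymes, were E-cadherin-positive and negative for GSII and DBA, and were cut from base zones on separate slides, so slide and lineage cannot be told apart in their case. The labels give no genotype, strain, age or treatment for any group. Each lineage was 1 pool of RNA on 1 array, from 3000 to 5000 cells of 4 to 5 mice, and 20 ng of it was amplified. There is no replicate, so every difference describes these arrays, and no p-value is given.

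A ribosome is built from a large and a small subunit, each a core of ribosomal RNA coated with proteins that are mostly present as single copies. The small subunit holds the messenger RNA and reads its codons, and the large subunit joins amino acids and lets the new chain out through a tunnel. Messenger RNAs of ribosomal proteins typically start with a cytosine followed by an unbroken stretch of pyrimidines, the 5′ terminal oligopyrimidine (TOP) tract, through which growth signals relayed by the kinase mTOR control their translation as a set. Secretory cells such as zymogenic cells hold many ribosomes on the endoplasmic reticulum.

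The starts of 9 genes are shown because the TOP tract is the feature by which these genes are usually recognised. Each line gives 15 bases before and 15 bases from the start annotated in RefSeq (GRCm38.p6), 5′ to 3′ on the gene's strand, with the unbroken run of C or T that covers the start in capitals. Rpl13a, Rps28, Rpl4 and Rps26 are included as genes with no such run of 8 or more bases.
Rpl7a (chr2:26910792-26910821, + strand): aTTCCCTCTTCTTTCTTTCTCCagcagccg
Rpl35 (chr2:39005117-39005146, - strand): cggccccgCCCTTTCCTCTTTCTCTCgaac
Rplp2 (chr7:141447636-141447665, + strand): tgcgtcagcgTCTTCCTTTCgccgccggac
Rps18 (chr17:33955651-33955680, - strand): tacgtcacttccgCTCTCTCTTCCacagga
Rps10 (chr17:27635230-27635259, - strand): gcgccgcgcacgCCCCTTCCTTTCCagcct
Rpl13a (chr7:45128731-45128760, - strand): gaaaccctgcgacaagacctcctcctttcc
Rps28 (chr17:33824548-33824577, - strand): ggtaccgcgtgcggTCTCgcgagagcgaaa
Rpl4 (chr9:64173372-64173401, + strand): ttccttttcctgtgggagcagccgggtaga
Rps26 (chr10:128626492-128626521, - strand): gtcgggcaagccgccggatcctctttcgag

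Promoter sequences were matched for 40 of the 46 genes. A pyrimidine run of at least 8 bases covered the annotated start in 12 of them (30.0%), 6 of 22 of the large and 6 of 18 of the small subunit. The share was 3.81% over all 27025 genes with a promoter in the table. The same search on the other strand, for runs of A or G, found 1 of the 40 genes (2.50%) and 5.68% of all genes. The runs reached 21 bases in Rpl7a, 20 in Rpl27a, 18 in Rpl35, 14 in Rpl14, 13 in Rps10 and 11 in Rps18, and 10 in Rpl38, Rplp2 and Rps6. Those of Rps9, Rps24 and Rps27 had 9 bases. These lengths count bases on both sides of the annotated start, so they are not lengths of a tract within the messenger RNA. The annotated start itself was a C in 13 of the 40 genes (32.5%) and in 16.2% of all genes. Of the tissue-restricted paralogs, neither Rpl3l nor Rpl39l had a run at its start. No run says only that these letters do not cover the annotated start, and several genes, such as Rpl13a, hold a pyrimidine stretch a few bases away in the lines printed above.

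**Figure D1:**
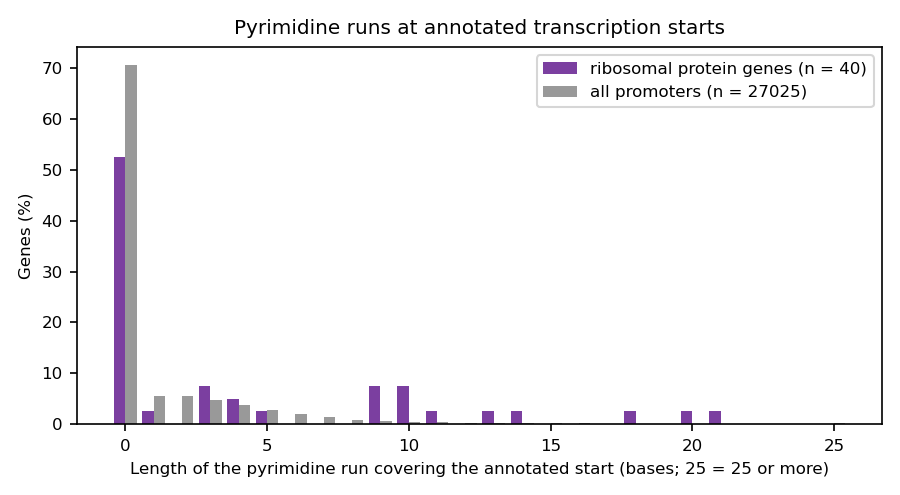
Length in bases of the pyrimidine run that covers the annotated start (horizontal axis, 25 standing for 25 or more) against the percent of genes (vertical axis), for 40 ribosomal protein genes and all 27025 genes with a listed promoter. Runs of 8 or more bases are found in 30.0% of the ribosomal protein genes and in 3.81% of all genes.

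Intensities are on a linear scale as deposited. A value counted as above background past a floor of 23.3. The floor is the 95th percentile of 80 olfactory and vomeronasal receptor probe sets on the array where that percentile was highest, and lower values were raised to the floor before folds and log2 differences were taken. Of the 46 genes, 35 exceeded the floor on at least 1 array, 18 of the large and 17 of the small subunit, and 32 exceeded it on all 3. Rps19 and Rps24 passed on the parietal array alone, and Rps9 on the zymogenic array alone. The other 11 were at or under the floor on every array: Rpl3l, Rpl12, Rpl14, Rpl37, Rpl39, Rpl39l, Rps4l, Rps6, Rps16, Rps25 and Rps27. Rpl3l is the paralog of striated muscle and Rpl39l that of the testis, while most of the others belong to ribosomes of all cells. Intensities of different probe sets cannot be ranked against each other.

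In the values as deposited, the parietal array read highest in nearly every gene above the floor, and the pit array was most often the lowest. The median differences of both subunits had the same order of arrays. After quantile normalization the parietal array was the highest in 24 of the 35, counting Rpsa, which was level with the zymogenic array. Shares of all genes by highest array were not counted under that scaling, here or below. As deposited, the parietal array was the highest of the 3 for 34 of the 35. Of all 4138 genes above the floor on some array, 38.6% had their highest value there. The exception was Rps9, a small subunit protein near the entry of the messenger RNA, at 15.1 (parietal), 27.0 (zymogenic) and 7.88 (pit), close to background throughout. The zymogenic array had the highest value in 27.4% of all genes and the pit array in 34.0%, against 1 and 0 of these 35. The pit array was the lowest for 23 of the 35 (33.3% of all genes), and the parietal array for 0 (15.1%). The order parietal, zymogenic, pit held for 22 genes (15.5% of all genes) and parietal, pit, zymogenic for 12 (23.1%). Without the genes that passed on 1 array alone, all 32 that remain were highest on the parietal array. In pooled cells of this kind, fewer cells of a type and less RNA per cell cannot be told apart.

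**Figure D2:**
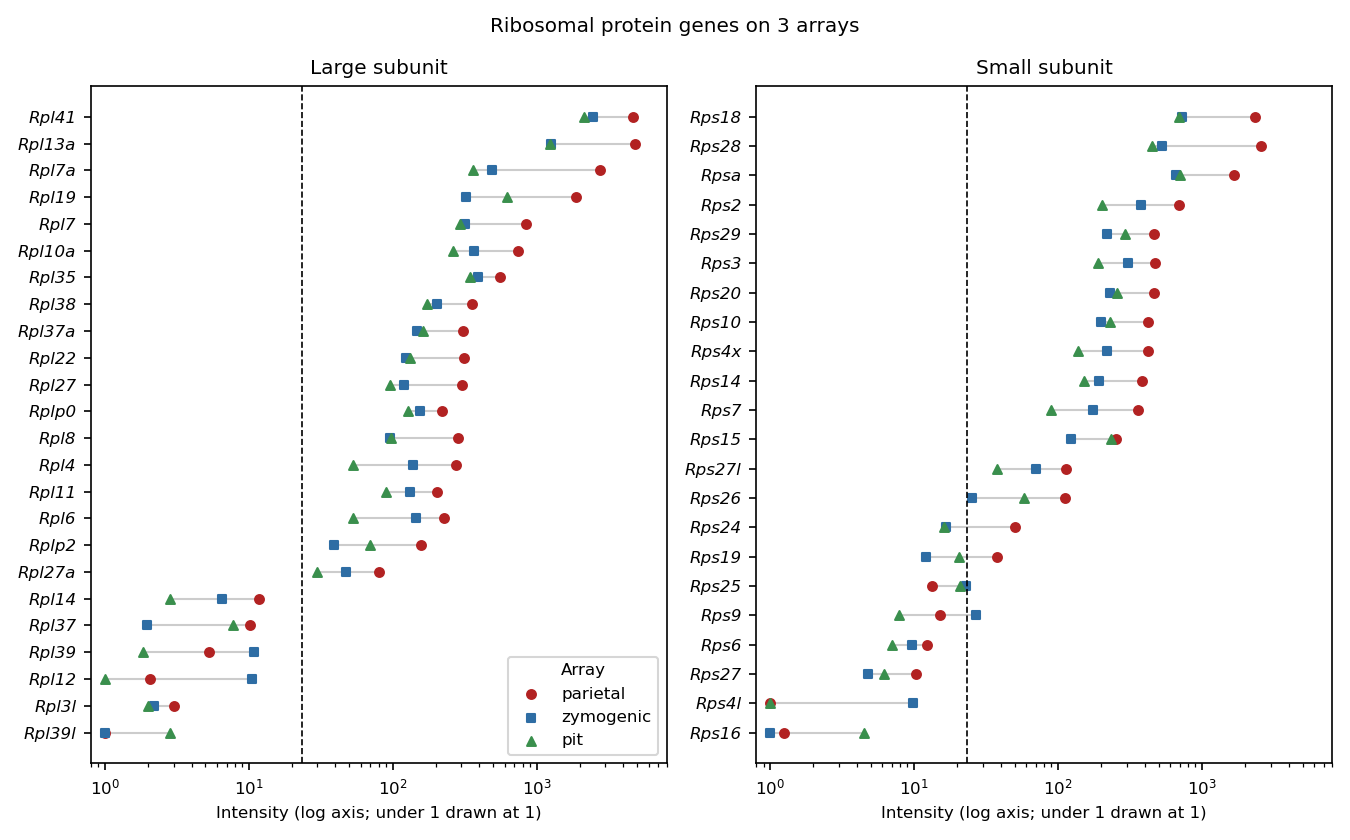
Intensity on a log axis (values under 1 drawn at 1) of each of the 46 ribosomal protein genes on the parietal, zymogenic and pit arrays, by subunit and sorted by mean, with 1 point per array and a dashed line at the floor of 23.3. The parietal point lies to the right in 34 of the 35 genes that cross the floor, and 11 genes stay at or under it.

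The scaling between the arrays matters for every statement on direction, because the arrays differed as a whole. In the 1186 genes that exceeded the floor on every array, the log2 difference had a median of 0.64 for parietal minus zymogenic, 0.29 for parietal minus pit and -0.21 for zymogenic minus pit. The BioB and BioC hybridisation controls, averaged geometrically, read 299.8 on the parietal array against 700.3 and 700.6. The labelled lineages were checked against their markers, and markers of 1 lineage were found on the array of another. The summed intensity of 8 pit cell markers was 20201 (parietal), 236 (zymogenic) and 14595 (pit). Gkn1 (10493, 12.5 and 8307) and Gkn2 (7987, 8.28 and 2723) made up most of the parietal and pit sums. Of the 8, 5 were highest on the pit array (Muc5ac, Tff1, Psca, Krt20 and Foxq1) and 3 on the parietal array (Gkn1, Gkn2 and Car9). In the same order of arrays, 10 measured parietal markers summed to 5666, 1274 and 362, and 9 zymogenic markers to 4313, 37500 and 409.6. Atp4b (4402, 793 and 102) made up most of the parietal marker sum on the parietal array. Of the 5 parietal markers above the floor, 3 were highest on the parietal array. Atp4a (214, 261 and 12.5) and Kcnq1 (29.1, 60.5 and 3.71) were highest on the zymogenic array, as were all 9 zymogenic markers. All 8 pit markers, led by Gkn1 and Gkn2, exceeded the floor in the parietal pool, where 5 of the 10 parietal markers did. Of 6 endocrine markers, 5 exceeded it in the zymogenic pool, 1 in the pit pool and 0 in the parietal pool, where Hdc read 0, while endothelial markers (4 measured) and erythroid markers (2 measured) were under it on all 3 arrays. Markers of stroma, the connective tissue, had the order of the ribosomal protein genes: 6 measured markers summed to 309.6 (parietal), 151.9 (zymogenic) and 83.1 (pit), with 4, 2 and 1 of them above the floor. The 4 markers above the floor were all highest on the parietal array, with a median log2 ratio of 1.10 to the mean of the others, and the collagens Col1a2 (125, 61.7 and 25.6) and Col3a1 (103, 39.4 and 19.8) led them. The neck cell marker Tff2 was at 402, 21.9 and 110, and Mki67, a marker of dividing cells, at 39.6, 1.12 and 11.2, while the other neck marker, Gkn3, was at 10.8, 8.56 and 28.7. Summed myeloid markers (5 measured) were 194, 411 and 80.6, and smooth muscle markers (4 measured) 113, 186 and 119. The 3 myeloid markers above the floor differed in order. Csf1r (111, 374 and 22.4), which made up most of the zymogenic sum, was highest on the zymogenic array. Adgre1 (33.6, 5.83 and 34.1) was highest on the pit array and Lyz2 (25.1, 14.2 and 11.0) on the parietal array. The part of these differences in the ribosomal protein values was not tested.

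The parietal array was first set against both others. At least 2-fold higher there than on both others were 14 of 35 ribosomal protein genes, where 7.49% of all genes tested met that rule, and 0 were at least 2-fold lower (0.387%). No gene was at least 2-fold above both others on the zymogenic array (0 of 35, 6.91% of all) or on the pit array (0 of 35, 5.78%). Restricted to genes that exceeded the floor everywhere, 13 of 32 were higher on the parietal array (11.3% of all) and 0 were lower (1.01%). Under the same restriction 0 of 32 stood above both others in zymogenic cells (4.22%) and 0 in pit cells (3.20%). The median log2 ratio of the parietal array to the mean of the others was 1.24 over the ribosomal protein genes and 0.06 over all genes tested. Over genes above the floor on all 3 arrays these medians were 1.28 and 0.48. After quantile normalization, which gives all arrays the same distribution of values, 2 of 35 genes met the rule (3.34% of all), the median was 0.62, and the highest value came from the zymogenic array in 10 genes and from the pit array in 1. Those 10 were Rpl6, Rpl11, Rpl35, Rpl38, Rplp0, Rps2, Rps3, Rps9, Rps18 and Rps27l, and the 1 was Rps15.

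Rpl7a, a protein of the large subunit, stood farthest above both other arrays. It stood at 2757 (parietal), 486 (zymogenic) and 360 (pit), which was 5.67-fold above the zymogenic array. It has no further probe set that names it alone, and it was 1 of the 2 genes that met the rule after quantile normalization. Rpl19, which reaches across the face of the large subunit towards the small one, was the other. It was at 1882, 323 and 619, and its parietal value was 3.04-fold above the pit array. Both thus differed between arrays in the same direction under either scaling, while their order of zymogenic and pit values was opposite.

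Rps28, a small subunit protein at the exit of the messenger RNA channel, was at 2561, 526 and 453, a 4.87-fold difference from the zymogenic array. A second probe set read 2352, 567 and 479. The third gave 1162, 311 and 600.3, with the pit above the zymogenic array, so the order of these lineages for Rps28 depends on the probe set. Rps18, in the head of the small subunit, stood at 2331, 725 and 691 (3.21-fold), and its 2 further probe sets above the floor also had parietal values at least 2-fold above both others. After quantile normalization Rps18 was highest on the zymogenic array, at 1428 against 1367 on the parietal array.

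Rpl13a, a large subunit protein also known for silencing inflammatory messenger RNAs after interferon gamma, was at 4830.1, 1251 and 1233 (3.86-fold). Its second probe set was at 4297, 1216 and 1183, close to these values. Another was at 57.3, 37.6 and 31.2, with a log2 ratio of 0.74 against the 1.96 of the set used. The last was at 24.1, 9.64 and 10.4, where the zymogenic and pit values were under the floor, so its log2 ratio of 0.05 is only a lower bound. For comparison, the SD of log2 ratios among the probe sets of a gene was 0.479, taken over all genes.

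Rpl8, the protein closest to the site where peptide bonds form, was at 285 on the parietal array against 95.8 and 96.5. Rpsa, the small subunit protein also described as a laminin receptor precursor, stood at 1657, 662 and 699. Both had nearly equal zymogenic and pit values, as did Rpl7 (842, 318 and 291) and Rpl22 (311, 124 and 131), an RNA-binding protein needed for lymphocyte development. Rpl22 was read as well by a transcript-specific probe set, at 110 on the parietal array against 25.4 and 30.7. Rpl27, Rplp2, Rps7, Rps24 and Rpl10a completed the genes at least 2-fold above both other arrays, at 2.00-fold to 2.53-fold. Just under the threshold lay Rpl4 at 1.99-fold, Rps14 at 1.98-fold and Rps26 at 1.93-fold.

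The lowest ratios to both others on the parietal array, after that of Rps9, belonged to Rps15, Rplp0, Rpl35 and Rps3. Rps15, whose tail reaches the decoding site, was nearly level at 251 (parietal) and 234 (pit), against 123 (zymogenic). Rplp0, the base of the stalk that recruits elongation factors, was at 221, 155 and 128, and Rpl35, near the mouth of the exit tunnel, at 554, 392 and 345. Rps3, at the messenger RNA entry, was at 472, 307 and 188. The parietal excess over the higher of the others was thus between 1.07-fold and 1.54-fold in these genes, and after quantile normalization Rplp0, Rpl35 and Rps3 were higher on the zymogenic and Rps15 on the pit array.

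The other genes above the floor lay between these groups. Rpl11, which can bind the p53 regulator Mdm2 when ribosome assembly fails, was at 204, 132 and 89.97, and Rpl38, needed for translation of some Hox messenger RNAs, at 355, 204 and 172. After quantile normalization both were higher on the zymogenic array. Rps14, Rps20 and Rps29 were the genes whose probe sets differed least, by 0.03, 0.08 and 0.10 in their log2 ratios. Rps14 was at 381, 193 and 151, Rps20 at 461, 229.6 and 258, and Rps29 at 462, 218 and 291. Rps4x, an X-linked small subunit protein, was at 419.6, 220.1 and 138. Rps19, the gene most often mutated in Diamond-Blackfan anaemia, was above the floor on the parietal array at 38.0 and under it at 12.2 and 20.4, and Rps24 likewise at 50.2, 16.6 and 16.2.

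Rpl41, a very short basic peptide at the interface of the subunits, was at 4700.1, 2464 and 2137, or 1.91-fold. A further probe set read 4270.01, 2205 and 1785, while another gave nearly equal parietal and zymogenic values, at 350 and 345, with 276 for pit cells. Rps10, which has 5 probe sets above the floor, was at 423, 198 and 229, and its log2 ratios ranged from 0.28 to 1.18. All 31 further probe sets of ribosomal protein genes that exceeded the floor were highest on the parietal array, and 9 of them were at least 2-fold above both others. The shares over all probe sets were not counted. Probe sets of 1 gene share the RNA pool and often sequence, so they are not replicates.

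Between the parietal and the zymogenic array, the parietal value exceeded the zymogenic at least 2-fold in 20 of 35 ribosomal protein genes (20.9% of all genes tested), and the reverse held for 0 (7.64%). With genes above the floor everywhere these were 19 of 32 (32.8%) and 0 of 32 (6.16%). The median log2 difference of those 32 was 1.04, against 0.64 over all genes above the floor everywhere. Over all 35 it was 1.03, against 0.14 over all genes tested. Quantile normalization gave 0.24 (0 over all genes), with a parietal excess of at least 2-fold in 4 genes. The share of all genes with such an excess was not counted under that scaling. Scaling to BioB and BioC gave 2.22 (0.78 over all genes). The size of the parietal excess over zymogenic cells thus varied with the scaling. The widest differences were those of Rpl19 (2.54), Rpl7a (2.50) and Rps28 (2.28), and the smallest those of Rps9 (-0.21), Rpl35 (0.50) and Rplp0 (0.51), all as log2 differences.

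Between the parietal and the pit array, the parietal value was at least 2-fold above the pit value in 25 of 35 genes (12.0% of all genes tested), and the reverse held for 0 (6.40%). With genes above the floor everywhere these were 24 of 32 (21.8%) and 0 of 32 (4.89%). The median log2 difference of those 32 was 1.38, against 0.29 over all genes above the floor everywhere. Over all 35 it was 1.32, against 0.00 over all genes tested. Quantile normalization gave 1.05 (0 over all genes), with 18 genes at least 2-fold higher, a count whose share over all genes was not taken. Scaling to BioB and BioC gave 2.47 (0.69 over all genes). The widest differences were those of Rpl7a (2.94), Rps28 (2.50) and Rpl4 (2.39), and the smallest those of Rps9 (0.00, both values at the floor), Rps15 (0.10) and Rps29 (0.67). These comparisons share the parietal array.

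Between the zymogenic and the pit array, in the values as deposited, the differences were mostly below 2-fold and went both ways. The zymogenic value was at least 2-fold above the pit value for Rpl4 and Rpl6 (2 of 35, against 10.3% of all genes tested), and the reverse held for Rps26 (1 of 35, against 18.7%). With genes above the floor everywhere these were 2 of 32 (11.3%) and 1 of 32 (23.8%). The median log2 difference of those 32 was 0.21, against -0.21 over all genes above the floor everywhere. Over all 35 it was also 0.21, with 22 genes above 0 and 11 below, against -0.00 over all genes tested. Quantile normalization gave 0.72 (0 over all genes), with a zymogenic excess of at least 2-fold in 11 of 35 genes. The share of all genes with such an excess was not counted under that scaling.

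**Figure D3:**
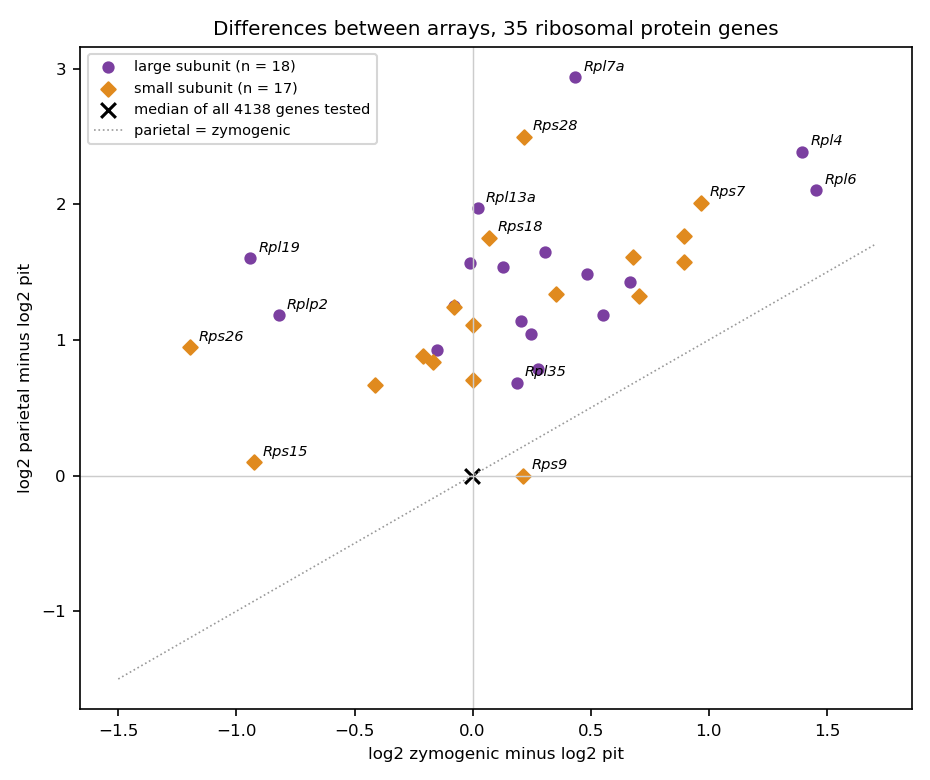
Log2 difference of zymogenic minus pit (horizontal axis) and of parietal minus pit (vertical axis) for the 35 ribosomal protein genes above the floor on some array, by subunit, with the median of all 4138 genes tested as a cross. Points above the dotted line are higher on the parietal than on the zymogenic array, which holds for 34 genes, and the SD along the horizontal axis is 0.60 for the large and 0.61 for the small subunit.

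Rpl4, a large subunit protein with an arm that lines the exit tunnel, was at 277 (parietal), 139 (zymogenic) and 52.8 (pit). Rpl6, on the outer face of the large subunit, was at 228, 145 and 53.0. In both, the pit value lay at least 2-fold below each other value (2.63-fold and 2.74-fold under the zymogenic), which was found for 2 of 35 ribosomal protein genes and 2.61% of all genes. With genes above the floor everywhere it was 2 of 32 and 5.65%. The next lowest on the pit array were Rps7, at 359, 174 and 89.0, and Rps2, at the messenger RNA entry, at 693, 378 and 203. All 4 had the order parietal, zymogenic, pit.

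After quantile normalization, 11 of 35 genes had pit values at least 2-fold below both others, against 2.80% of all genes. They were Rpl4, Rpl6, Rpl7a and Rpl10a of the large subunit and Rps2, Rps3, Rps4x, Rps7, Rps18, Rps27l and Rps28 of the small one. Relative to the median of all genes under the same scaling, the ribosomal protein genes had a median log2 ratio on the pit array of -0.73 as deposited, -0.75 after quantile normalization, -0.72 after scaling each array to the same median and -0.98 after scaling to BioB and BioC. The same offset was 1.19, 0.70, 1.21 and 1.61 for parietal cells. For the zymogenic array it was -0.34, 0.29, -0.39 and -0.57, so its sign turned with quantile normalization while those of the pit and the parietal arrays did not. These offsets include genes raised to the floor on some arrays. Over genes above the floor everywhere, as deposited, they were 0.79 (parietal), -0.15 (zymogenic) and -0.76 (pit).

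Rps26, a small subunit protein that contacts messenger RNA before the start codon, went the other way. It was at 111 (parietal), 25.2 (zymogenic) and 57.8 (pit), 2.29-fold lower on the zymogenic array than on the pit array. It was the 1 gene of 35 at least 2-fold below both others there, where 11.1% of all genes were (1 of 32 and 16.9% with genes above the floor everywhere), and it met that rule after quantile normalization too. Rpl19, Rps15 and Rplp2 were next, at 1.92-fold, 1.90-fold and 1.77-fold below the lower of the others. Rplp2, an acidic protein of the stalk, was at 157, 39.2 and 69.2. In these 4 genes of both subunits the pit value lay between the other values, and in 12 of the 35 genes the zymogenic array was the lowest (51.6% of all genes).

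The large and the small subunit were compared next, since every ribosome pairs a large with a small subunit. For parietal minus zymogenic, the median log2 difference was 1.04 over 18 large and 1.03 over 17 small subunit genes, a difference of 0.01. For parietal minus pit the medians were 1.46 and 1.25 (0.21), and for zymogenic minus pit 0.23 and 0.07 (0.16). Whether the subunits differ was not tested. At least 2-fold above both other arrays on the parietal array were 9 of 18 large and 5 of 17 small subunit genes, and 9 of 18 and 4 of 14 of those above the floor on all 3 arrays. After quantile normalization the median of parietal minus pit was 1.10 over the large and 0.72 over the small subunit, and that of zymogenic minus pit was 0.75 and 0.72.

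**Figure D4:**
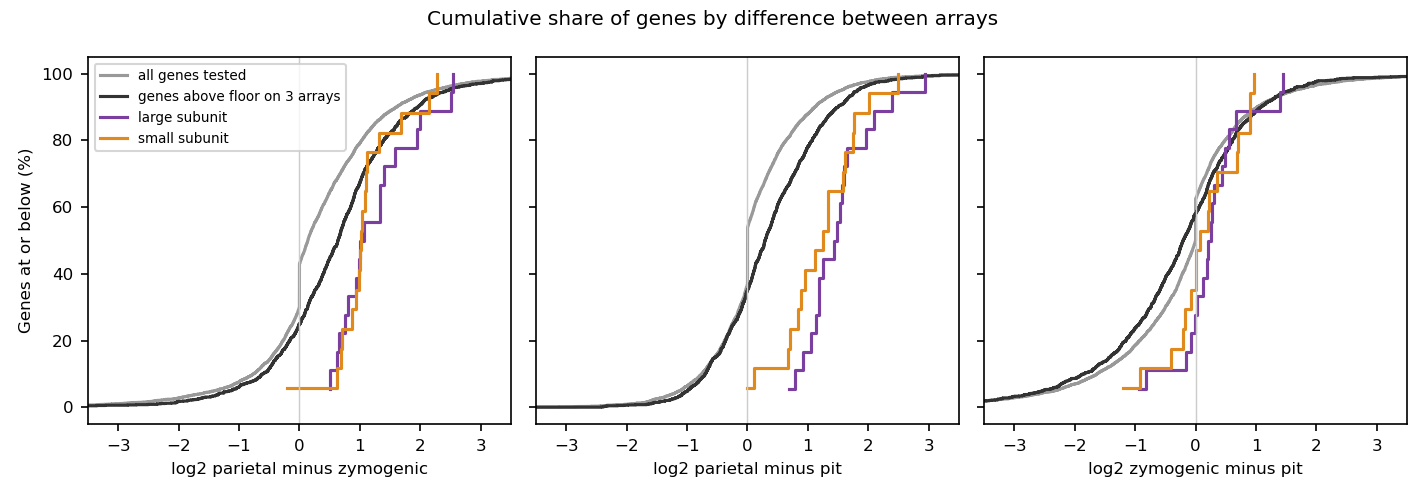
Percent of genes at or below each log2 difference for the 3 pairs of arrays, as steps for large subunit genes, small subunit genes, all 4138 genes tested and the 1186 genes above the floor everywhere. The medians of the large and the small subunit are 1.04 and 1.03, 1.46 and 1.25, and 0.23 and 0.07, and for the parietal differences these lie to the right of the medians of all genes, 0.14 and 0.00. For the same parietal differences the medians of the genes above the floor everywhere are 0.64 and 0.29.

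The values were also set beside the pyrimidine runs. Over the 9 genes with a run of at least 8 bases above the floor, the log2 ratio of the parietal array to the mean of the others had a median of 1.09 and a range of -0.11 to 2.72. Over the 21 without one, the median was 1.29 and the range 0.56 to 2.39. Among the longest runs, Rpl7a (21 bases) was at 2.72, Rpl27a (20) at 1.09 and Rpl35 (18) at 0.59.

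Rps27l, the paralog of Rps27 that is induced by p53, was above the floor on all 3 arrays. It stood at 113 (parietal), 70.3 (zymogenic) and 37.8 (pit). All 3 of its probe sets were highest on the parietal array. Among genes just outside the symbol rule, Rps3a1, a small subunit protein, was at 172, 84.1 and 49.0, and the paralog Rpl7l1 at 29.6, 39.4 and 8.86.

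Other genes of ribosome supply were examined from lists. Fau, which codes for a ubiquitin-like protein fused to a small subunit protein, was at 116 (parietal), 23.2 (zymogenic) and 67.2 (pit). Of 16 further transcripts listed as having a TOP tract, 14 were measured and above the floor on some array. The parietal array was the highest for 13 of them (38.6% of all genes), with a median log2 ratio there of 0.89. After quantile normalization 12 were above the floor, with the highest value in parietal cells for 6, in zymogenic cells for 3 and in pit cells for 3, and a median of 0.48. At least 2-fold above both others were Eef1b2, Naca and Npm1, or 3 of 14 (7.49% of all genes, and 11.3% of those above the floor everywhere). Tpt1, the translationally controlled tumour protein, was at 1657, 668 and 1104, Eef1d, a subunit of the factor that recharges the tRNA carrier, at 508, 281 and 255, and Eef1a1, that carrier itself, at 425, 308 and 127.

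Mitochondrial ribosomal proteins, which build the separate ribosomes of mitochondria, were above the floor on some array for 39 of 76 genes. Of these, 34 were highest on the parietal array (38.6% of all genes) and 5 of 39 at least 2-fold above both others (7.49% of all genes, and 11.3% of those above the floor everywhere), with a median log2 ratio of 0.61. Quantile normalization left 32 above the floor, with the highest value in parietal cells for 22 and in zymogenic cells for 10, and a median of 0.29. Mrpl51 was at 180, 49.7 and 71.7, Mrpl57 at 151, 69.7 and 54.3, and Mrpl2 at 109, 70.7 and 50.7.

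For the assembly machinery, the orders were more mixed. Of 55 ribosome biogenesis factors, 54 were measured and 20 exceeded the floor. The highest value was in parietal cells for 12 (38.6% of all genes), in zymogenic cells for 7 (27.4%) and in pit cells for 1 (34.0%). Their median log2 ratio on the parietal array was 0.21. Quantile normalization gave 6, 8 and 3 of 17 genes and a median of 0.00, and the difference of these factors from the ribosomal protein genes was not tested. Tsr1, a factor of small subunit maturation, was at 129, 46.7 and 78.3, and Nop10, of the pseudouridylation complex, at 54.8, 89.8 and 42.2. Nol6 was at 79.4, 41.4 and 57.0. Rrp9 and Wdr43, both of the small subunit processome, had zymogenic values at least 2-fold above both others (2 of 20, 6.91% of all genes). Npm1, which is also among the listed TOP transcripts, had such a parietal value (1 of 20, 7.49%).

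For RNA polymerase I, which transcribes ribosomal RNA, 4 of 12 measured genes exceeded the floor. Polr1d was at 156, 71.4 and 86.5, Polr1c at 79.7, 16.6 and 29.3, and the activator Ubtf at 8.48, 32.7 and 16.6. Of the 4, Polr1c alone was at least 2-fold above both others on the parietal array (7.49% of all genes). Of 12 measured regulators of TOP translation, 5 exceeded the floor. Mtor was at 42.8, 81.4 and 26.1 and Eif4ebp1, a repressor of cap-dependent initiation that mTOR inactivates, at 35.3, 103.6 and 69.8, both highest on the zymogenic array, while Eif4ebp2 was at 48.2, 10.4 and 59.4. None of the 5 was at least 2-fold above both other arrays.

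**Figure D5:**
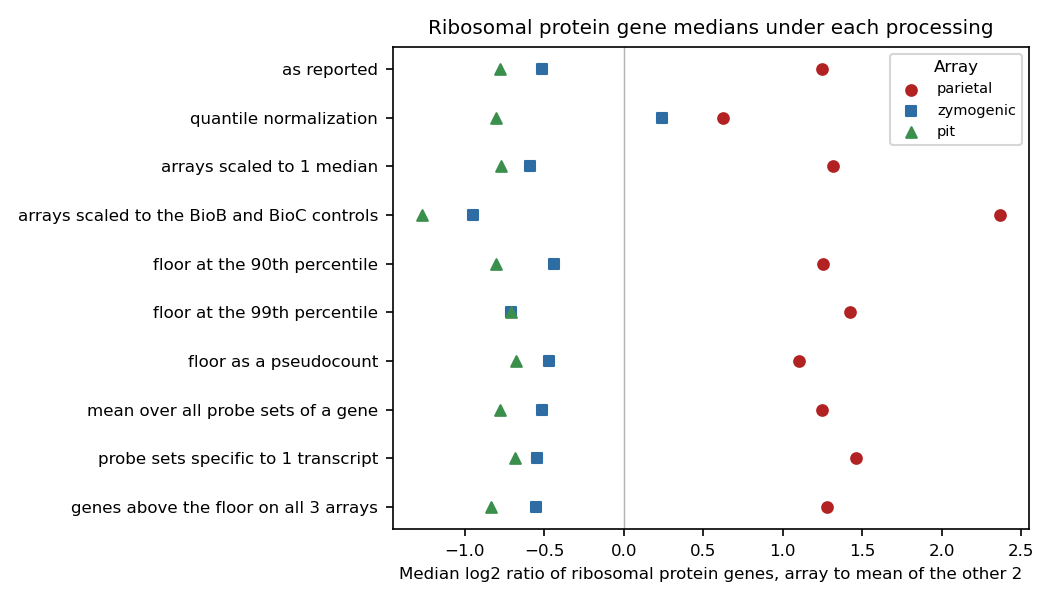
Median log2 ratio of the ribosomal protein genes on each array to the mean of the other arrays (horizontal axis) under each processing (rows), with 1 point per array. The parietal median stays above 0, between 0.62 and 2.37, the pit median stays below 0, between -1.27 and -0.68, and the zymogenic median is above 0 in 1 row, at 0.24 after quantile normalization.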

How the data were processed

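The authors deposited 1 intensity per probe set and array for 45101 probe sets on 3 arrays. The design text speaks of total RNA and the molecule label of nuclear RNA. How probes were summarised, corrected for background and scaled is not given in the sources used here. Gene symbols came from the platform's gene table, in which 34958 probe sets name 1 gene and 932 name several; 9160 more are unnamed here. Listed genes were matched by symbol, or through the RefSeq gene identifier where symbols differed. Reported values were not scaled further, and 11 alternatives were run, among them quantile normalization, scaling to the median or to BioB and BioC, other floors, other choices of probe set and other folds. With 1 array per lineage no test was possible, and the number of arrays limits the precision.

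Most ribosomal protein probe sets used were not specific to 1 transcript, and those marked _x_ or _s_ can cross-hybridise with other genes. Of the 35 genes above the floor, 15 were read by a set marked _x_ and 2 by one marked _s_. Another 14 were read by a set marked _a_, and 4 by one specific to 1 transcript. Named genes were those of highest mean intensity in each subunit, those farthest apart for each array and pair, those whose probe sets disagreed most, listed paralogs, and those of highest mean in each list. Rpl27, Rpl38, the markers, Rps4x, Rps14, Rps20, Rps24, Rps3a1, Rpl7l1 and the list members called at 2-fold were added after their values were seen. The genes and lists were chosen with earlier results of these data known. Calculations used Python 3.11.15, numpy 2.4.6, pandas 2.3.3 and matplotlib 3.10.9, and were tested on simulated data.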

Additional observations from a re-analysis of the deposited data

Results flagged for a closer look

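Some signal lay in probe sets that the comparisons did not use. Of 110 probe sets that name a ribosomal protein gene together with other genes, 86 exceeded the floor on some array. The 110 name 43 ribosomal protein genes, 28 of which have no probe set of their own. Of the 86, 82 were highest on the parietal array, 4 on the pit array and 0 on the zymogenic array. On the parietal array 40 were at least 2-fold above both others. The shares over all probe sets above the floor were not counted. Their median log2 differences were 1.06 for parietal minus zymogenic, 1.33 for parietal minus pit and 0.18 for zymogenic minus pit, close to the 1.03, 1.32 and 0.21 of the genes with a probe set of their own.

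The control probe sets for 18S ribosomal RNA, the RNA of the small subunit, had another order. The middle one stood at 97.6 (parietal), 240 (zymogenic) and 19.2 (pit), the 3′ one at 107, 140 and 28.0, and the 5′ one at 76.3, 111 and 24.1. These RNAs carry no long poly(A) tail, and their level after amplification was not tested against ribosome content.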

How the results depend on the processing

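No alternative turned the sign of the parietal or the pit median. After quantile normalization the parietal median was 0.6232, the zymogenic median turned to 0.2385, 2 genes were higher on the parietal array (3.34% of all genes) and 11 lower on the pit array (2.80%). With the BioB and BioC controls the parietal and pit medians were 2.369 and -1.272, and 34 of 38 genes were higher on the parietal array, where 31.3% of all genes were and the median of all genes was 0.76. The floor at the 99th percentile (868, 7 genes) gave 5 higher on the parietal array (24.7% of all genes) and 0 lower on the zymogenic (17.3%) or pit array (1.23%), and large minus small subunit differences of -0.0332 (parietal minus zymogenic) and -0.0224 (parietal minus pit). The former was -0.02476 with the floor at the 90th percentile. Transcript-specific probe sets (6 genes) gave 4 higher on the parietal (6.29%) and 0 lower on the zymogenic (9.62%) or pit array (1.76%), and the floor as a pseudocount 0 lower on the zymogenic array (10.4%). At 1.5-fold, 31 were higher on the parietal (15.3% of all genes), 4 lower on the zymogenic (17.5%) and 8 lower on the pit array (6.19%), and at 4-fold 2 (1.16%), 0 (3.94%) and 0 (0.507%). Of 394 values of single genes under the alternatives, 324 moved by less than 0.479 on the log2 scale, 70 by more, and 0 of those at least 2-fold changed sign. Several alternatives, such as the restriction to genes above the floor everywhere, leave most of these values as they were by design. The 324 are thus no measure of stability. Most parietal ratios moved by more than 0.479 under quantile normalization and under scaling to BioB and BioC. No paired analysis was possible because each lineage has 1 array.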
